A study of Mus musculus with 2 samples.

Results

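The STAT genes (signal transducers and activators of transcription) described here are Stat2, Stat3, Stat4, Stat5a, Stat5b and Stat6. Their rows were found by gene name, 6 of the 34745 rows in each count table, and each name matched a single row. The RNA came from Treg (regulatory T) cells of 2-week-old C57BL/6 mice, sorted from spleen as CD4+ cells positive for the YFP that marks Foxp3 expression. The wild-type library came from poh1+/+ Foxp3Cre+ mice and the knockout library from poh1fl/fl Foxp3Cre+ mice, so both carried Foxp3-Cre. This Cre is aimed at cells that express or had expressed Foxp3. Whether recombination also took place in other cells cannot be seen in these libraries. POH1 is the product of Psmd14, the deubiquitinase of the proteasome lid. There was 1 library per genotype, and no source used here says whether animals were pooled. No difference below therefore has a replicate check, and each interval is an exact 95% counting interval that leaves out the spread between mice.

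STAT proteins carry signals from cytokine receptors to the nucleus. A cytokine joins its receptor chains, the Janus kinases bound to those chains phosphorylate the receptor and then a STAT, and paired STATs enter the nucleus and bind DNA. STAT5A and STAT5B act below the interleukin-2 receptor and are needed for Foxp3 expression and Treg survival. STAT3 serves interleukin-6, interleukin-10 and related cytokines, STAT4 serves interleukin-12, STAT6 serves interleukin-4 and interleukin-13, and STAT2 works with IRF9 in the interferon-activated complex ISGF3. STAT dimers bind the GAS element, whose core is TTCNNNGAA, and STAT6 also binds a spaced form, here searched as TTC, any 4 bases, then GAA. ISGF3 binds the interferon-stimulated response element (ISRE), here searched as GAAA, any 2 bases, then GAAA. Both strands were searched, and matches could overlap.

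The promoter sequences of 3 members are shown, the Stat2 and Stat4 windows because they hold the motif matches and that of Stat3 as one without a match. Windows are the 250 bases before a transcription start, from RefSeq (GRCm38.p6, the assembly also called mm10), 5′ to 3′ on the gene's strand. Capitals mark letters that match one of the 3 motifs on either strand. All 6 members had a window, 9 in all since Stat4, Stat5a and Stat5b have 2 starts each.
Stat2 promoter, chr10:128270248-128270497, plus strand: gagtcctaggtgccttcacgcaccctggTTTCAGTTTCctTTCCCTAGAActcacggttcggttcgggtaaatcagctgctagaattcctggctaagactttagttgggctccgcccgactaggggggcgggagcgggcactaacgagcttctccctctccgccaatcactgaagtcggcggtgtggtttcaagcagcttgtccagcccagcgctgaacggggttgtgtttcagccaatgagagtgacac
Stat3 promoter, chr11:100939541-100939790, minus strand: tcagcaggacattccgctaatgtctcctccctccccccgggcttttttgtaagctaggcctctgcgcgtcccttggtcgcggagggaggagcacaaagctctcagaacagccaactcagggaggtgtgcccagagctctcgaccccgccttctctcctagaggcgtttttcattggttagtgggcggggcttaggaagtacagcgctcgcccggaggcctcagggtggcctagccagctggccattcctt
Stat4 promoter, chr1:52007990-52008239, plus strand: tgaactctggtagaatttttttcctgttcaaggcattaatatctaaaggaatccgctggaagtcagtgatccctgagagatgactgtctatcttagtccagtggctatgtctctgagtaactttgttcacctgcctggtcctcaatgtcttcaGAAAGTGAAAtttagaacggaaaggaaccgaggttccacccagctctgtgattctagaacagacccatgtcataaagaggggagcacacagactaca

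The Stat2 window held an ISRE match starting 222 bases before the start and a spaced GAS match starting 210 bases before it, with 2 bases between them. The window before the downstream start of Stat4, which lies within the gene as annotated, held an ISRE match 97 bases before that start. The other 7 windows, that of Stat3 among them, held none of the 3 motifs, which says only that these letters are not in these stretches. Among them, the Stat5a windows have 175 and 139 of their 250 bases in annotated exons of Stat5a itself. A Stat5b window has 143 in exons of Stat5b, and the other Stat5b window lies within the gene as annotated. Over all 32851 windows of this length, 2.98% held an ISRE match, 5.85% a spaced GAS match and 7.02% a TTCNNNGAA match. The matches of Stat2 and Stat4 are set beside those of 2 interferon-induced genes, Ifit1 and Ifit3, each read on the strand where both GAAA parts show, with the motif in capitals and 10 bases on either side.
Stat2 site, chr10:128270266-128270295, minus strand: ctagggaaagGAAACTGAAAccagggtgcg
Stat4 site, chr1:52008133-52008162, plus strand: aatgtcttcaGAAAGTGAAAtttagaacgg
Ifit1 site, chr19:34640775-34640804, minus strand: actgagactgGAAAGTGAAActgaagcctg
Ifit3 site, chr19:34583397-34583426, minus strand: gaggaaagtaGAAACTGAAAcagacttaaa
The 2 middle bases are CT in Stat2 and in this match of Ifit3, and GT in Stat4 and in this match of Ifit1. Ifit1 and Ifit3 each hold another match that is not shown, with CT in Ifit1 and GT in Ifit3. The middle bases therefore do not pair either STAT gene with 1 of these genes. A match is a description of the letters and not of binding.

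Library totals were 18124611 counts (wild type) and 14544212 counts (knockout). Levels below are in CPM, the counts scaled to the library total with the TMM factor, and pairs of values give the wild-type library first. Psmd14 was at 89.4 and 31.8 CPM, in the direction of the labels. The labelled cell type was checked against 8 T cell and Treg genes, all detected in both libraries. Cd4 was at 688 and 724 CPM and Foxp3 at 671 and 1073 CPM. By the 1.5-fold rule given below, 3 of the 8 were higher (Foxp3, Il2ra and Ikzf4) and 2 lower, Ctla4 at 1120 and 703 CPM and Ikzf2 at 825 and 526 CPM. The same rule called 9.58% of all measured genes higher and 12.3% lower, which stands beside every count called in this paragraph. Markers of other cells were present at lower levels, and they moved in both directions. The 7 B cell markers summed to 140.1 and 37.5 CPM, and the 7 erythroid markers to 68.5 and 18.3 CPM, with every marker of both lists lower. The 7 neutrophil markers summed to 17.1 and 5.50 CPM, with 4 of 5 measured lower. The 7 monocyte and macrophage markers summed to 178 and 224 CPM, with 1 higher and 0 lower, and the 7 dendritic cell markers to 57.01 and 59.0 CPM, with 0 higher and 4 lower. Of the dendritic sum, 28.9 and 37.9 CPM were Bst2, which is also among the interferon-induced targets below. The 7 CD8 T cell and natural killer cell markers summed to 39.1 and 70.5 CPM, with 3 of 5 measured higher and 0 lower. The 3 were Cd8a, Cd8b1 and Eomes. The natural killer cell markers did not rise with them, Nkg7 having a ratio of 0.796 (0.663 to 0.953) and Klrb1c 19 and 12 counts. Klrd1 and Ncr1 were not measured. Camp, S100a8, Xcr1, Clec9a and Ncr1 had 0 counts in the knockout library and Elane had 0 in both. The part of these cells in the STAT differences was not tested. In sorted bulk RNA, fewer cells of a type and less RNA per cell cannot be told apart.

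Of the 6 STAT genes, 3 were higher in the knockout and 0 were lower. The rule for such a call was a counting interval wholly beyond 1.5-fold. It called 9.58% of all 13464 measured genes higher and 12.3% lower, where a measured gene reached 1 CPM in the wild-type library, the knockout library or both. All 6 STAT genes did. With a 2-fold limit 1 STAT gene was higher and 0 lower, against 4.34% and 6.63% of all genes, and with a 5/4-fold limit 4 were higher and 0 lower, against 16.7% and 19.5%. The 3 called at 1.5-fold were Stat2, Stat3 and Stat5a. Stat5b lay at the edge of the rule and was called as well under upper quartile scaling, Stat6 was slightly higher, and Stat4 was nearly level. The log2 ratios of knockout to wild type had a median of 0.72 over the 6 STAT genes, against -0.01 over all measured genes, whose quartiles were -0.44 and 0.39. The 6 genes together took 22986 and 30344 counts, or 1269 and 2086 CPM, a sum 1.64-fold higher (1.62 to 1.67).

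**Figure D1:**
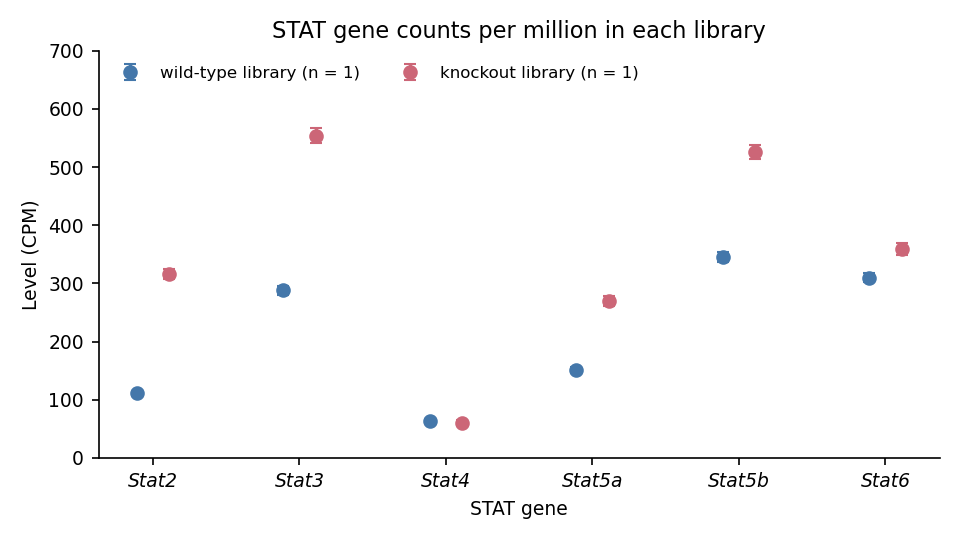
Level of each STAT gene in CPM on a linear axis from 0, with 1 point per library (wild type and knockout, 1 library each) and bars for the 95% counting interval. The knockout point stands above the wild-type point for Stat2, Stat3, Stat5a, Stat5b and Stat6, while the bars of the 2 libraries overlap for Stat4 (63.7 and 60.2 CPM).

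Stat2, whose protein is the transactivating partner in ISGF3, differed most. It had 2006 and 4597 counts, which is 111 CPM (106 to 116) and 316 CPM (307 to 325). The knockout level was 2.85-fold higher (2.71 to 3.01), and the 2 counting intervals were far apart. By log2 ratio, Stat2 ranked 573 from the highest among the 13464 measured genes. Stat2 (chr10:128270559-128292849, plus strand, mm10, GENCODE M21) is the member whose promoter window held both an ISRE and a spaced GAS match.

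Stat3 encodes the factor that answers interleukin-6 and interleukin-10 and that lets Treg cells restrain T helper 17 responses. It had 5218 and 8062 counts, or 288 CPM (280.2 to 296) and 554 CPM (542 to 566). It was 1.92-fold higher in the knockout library (1.86 to 1.99) and ranked 1291. Stat5a, which encodes one of the pair of factors below the interleukin-2 receptor, had 2733 and 3929 counts, or 151 CPM (145 to 157) and 270.1 CPM (262 to 279). It was 1.79-fold higher (1.70 to 1.88) and ranked 1518. The ratio of Stat3 was 1.07 times that of Stat5a (1.01 to 1.14), an interval that only just leaves out 1.

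Stat5b, the more abundant of the pair in these libraries by counts, had 6261 and 7654 counts, or 346 CPM (337 to 354) and 526 CPM (514 to 538). Its ratio of 1.52 (1.47 to 1.57) exceeded 1.5, but the interval reached below it, so the rule did not call it. Stat6, the interleukin-4 factor, had 5614 and 5226 counts. After scaling it was at 309.8 CPM (302 to 318) and 359 CPM (349.5 to 369), 1.16-fold higher (1.12 to 1.20), with intervals that did not overlap. Stat4, the interleukin-12 factor, had 1154 and 876 counts, or 63.7 CPM (60.1 to 67.5) and 60.2 CPM (56.3 to 64.3). It was the single member with a ratio below 1, at 0.945 (0.865 to 1.03), and that interval spans 1. Stat5b, Stat6 and Stat4 ranked 2249, 4744 and 7461 from the highest.

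**Figure D2:**
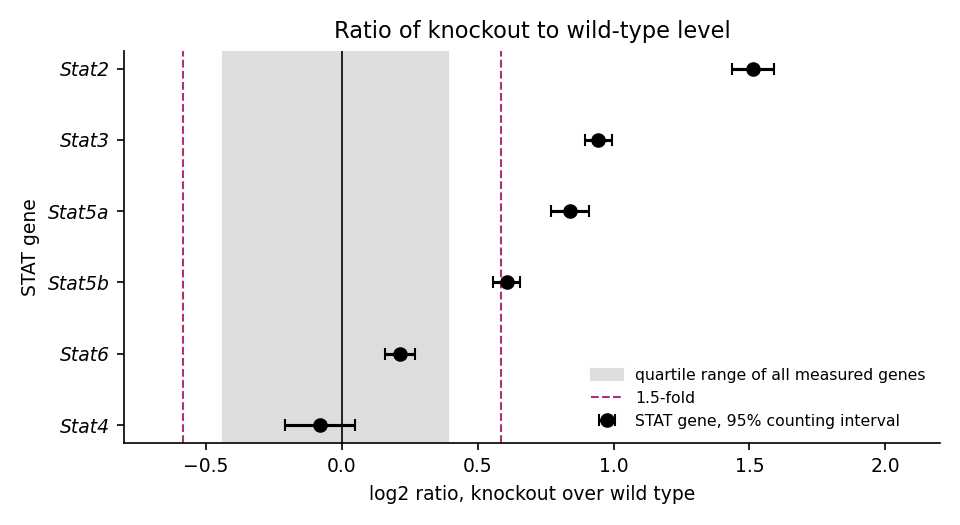
The log2 ratio of knockout to wild type for each STAT gene (points) with its 95% counting interval (bars), the 1.5-fold limits (dashed lines) and the quartile range of all measured genes (grey band, -0.44 to 0.39). Stat2, Stat3 and Stat5a lie wholly beyond the upper limit, Stat5b straddles it, and Stat6 and Stat4 lie inside the band.

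The members thus spanned a range of ratios within 1 family. Each of the 15 pairs of members differed in ratio beyond counting error alone, Stat3 and Stat5a being the closest pair. The ratio of Stat2 was 3.02 times that of Stat4 (2.72 to 3.35), the widest gap, and 1.48 times that of Stat3 (1.39 to 1.58). These intervals do not depend on the scaling between libraries, since both genes of a pair share it. Pairs with Stat4 hold for its counts as deposited, and how reads shared with the overlapping Gm28177 were assigned is not known. With all Gm28177 counts added, the ratio of Stat4 would be 2.42 (2.31 to 2.54), as described below. The pair of Stat5a and Stat5b can share reads as well.

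Stat5a and Stat5b are neighbours, 8627 bases apart on chromosome 11 and read in opposite directions away from each other, and they encode closely related proteins. Together they had 8994 and 11583 counts, or 496 and 796 CPM, 1.60-fold higher (1.56 to 1.65). Stat5b made up 69.6% of these counts in the wild-type library (68.7% to 70.6%, Clopper-Pearson) and 66.1% in the knockout library (65.2% to 66.9%). The intervals did not overlap, and the log2 ratio of Stat5a exceeded that of Stat5b by 0.23 (0.15 to 0.32). Their transcripts are alike enough to share reads. Of the 50-base windows in the principal Stat5a transcript, 15.8% also occur in Stat5b transcripts, and 7.0% of the 100-base windows do. For Stat5b the shares were 11.8% and 5.18%. No source used here gives the read length or the handling of reads with several matches, so the split between Stat5a and Stat5b is uncertain to that extent, while their sum is less affected.

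The order of the STAT levels depended on the gene length used. The authors' FPKM, a level per length, placed Stat5b highest in the wild-type library at 58.9 FPKM, then Stat6 at 53.6, Stat2 at 24.7, Stat3 at 18.3, Stat5a at 15.1 and Stat4 at 13.5. In the knockout library Stat5b was at 89.8 FPKM, Stat2 at 70.5, Stat6 at 62.2, Stat3 at 35.2, Stat5a at 27.1 and Stat4 at 12.8. On the FPKM scale Stat2 moved from the third to the second place. The order of the other members did not change, so Stat6 went to the third place.

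The FPKM values of Stat3 and Stat5a rest on lengths well above that of 1 transcript. Dividing counts by FPKM gave a length of 15739 bases for Stat3 and 9981 bases for Stat5a. The principal GENCODE transcripts have 4516 and 3888 bases, and the union of all annotated exons has 9527 and 7133 bases. For Stat2 and Stat5b the lengths used (4481 and 5863 bases) were close to the principal transcripts (4394 and 5213 bases). For Stat6 and Stat4 they were 5778 and 4717 bases, against principal transcripts of 3775 and 2982 bases.

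With the length of the principal transcript, Stat3 was among the most abundant members. In CPM per kilobase of principal transcript, the wild-type library had Stat6 at 82.1, Stat5b at 66.3, Stat3 at 63.8, Stat5a at 38.8, Stat2 at 25.2 and Stat4 at 21.4. On the same scale the knockout library had Stat3 at 122.7, Stat5b at 100.9, Stat6 at 95.2, Stat2 at 71.9, Stat5a at 69.5 and Stat4 at 20.2. Stat3 thus went from the third to the first place on this scale. With the union of exons it kept the third place, at 30.2 and 58.2 CPM per kilobase, and by FPKM its place did not change either. Stat4 was the lowest member in both libraries under all 3 lengths. Stat2 gained share under all 3, from 13.4% to 23.7% of the summed STAT FPKM and from 8.47% to 15.0% of the sum per kilobase of principal transcript. With the union of exons its share went from 8.52% to 15.6%. The length does not touch the ratio of knockout to wild type of a gene.

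**Figure D3:**
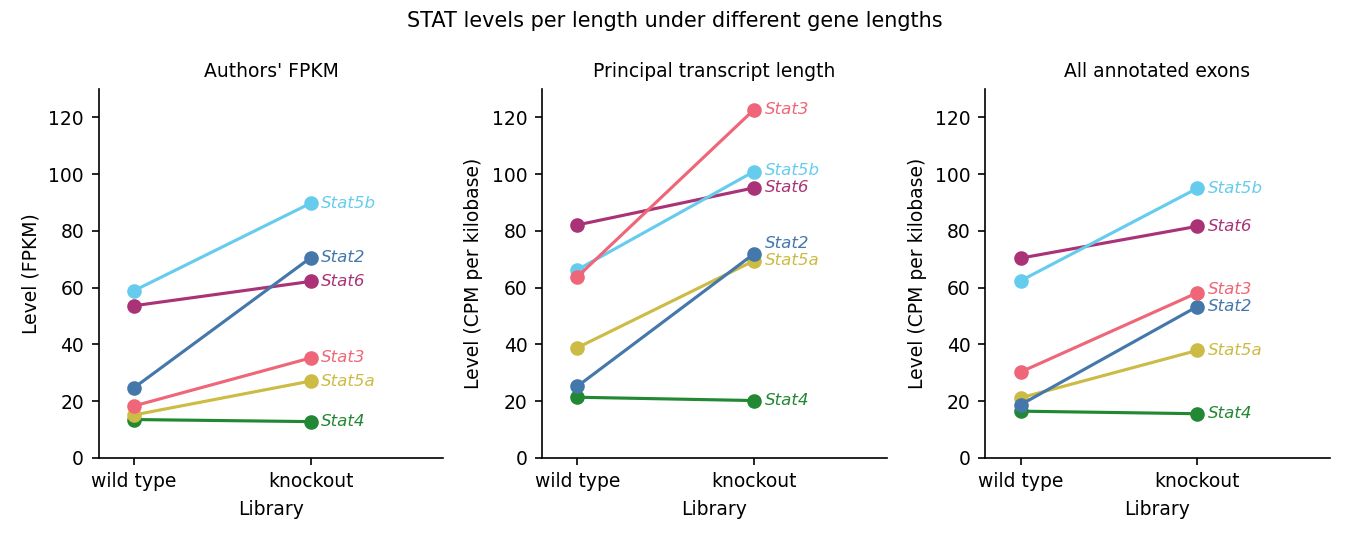
Level of each STAT gene per length in the wild-type and knockout library (1 library each, joined by a line), as the authors' FPKM, as CPM per kilobase of the principal transcript and as CPM per kilobase of all annotated exons, on linear axes from 0. Stat3 stands below Stat5b, Stat2 and Stat6 in the knockout library by FPKM (35.2) and first per kilobase of principal transcript (122.7), and Stat4 is the lowest in every panel.

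The count of Stat4 carries an annotation limit. Stat4 (chr1:51987148-52107189, plus strand) shares 1033 bases, 26.7% of its exon bases, with Gm28177, a noncoding transcript on the same strand that joins Stat4 exons to exons further along the chromosome. In the principal Stat4 transcript 28.6% of 50-base windows also occur in Gm28177. Gm28177 had 1476 and 4239 counts, 3.58-fold higher (3.37 to 3.80), and 29.2% of its exon bases lie in Stat4. No source used here says how reads on the shared bases were assigned. If every Gm28177 count were given to Stat4, an alternative chosen after the data were seen, the sum would be 2630 and 5115 counts, a ratio of 2.42 (2.31 to 2.54). This sum is not a limit on the Stat4 count, since reads on the shared bases may have been counted for neither gene. The near-level ratio of Stat4 holds for the counts as deposited.

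The other members overlap little with other genes. Stat3 (chr11:100885098-100939540, minus strand) and Stat5a (chr11:100859351-100885169, plus strand) meet at their ends and share 72 exon bases. Stat6 (chr10:127642986-127660957, plus strand) shares 40 exon bases with Nab2, and Stat2 and Stat5b (chr11:100780731-100850724, minus strand) share none. The kit does not mark strand, so reads on shared bases cannot be told apart.

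Neighbours of Stat2, Stat3, Stat5b and Stat6 are given here, and none of them outside the family was called. Beside Stat5b, Ghdc had 142 and 156 counts, a ratio of 1.37 (1.08 to 1.73) that the rule did not call. Beyond Stat3, Cavin1 (listed as Ptrf) had 17 and 16 counts. Nab2, an EGR corepressor gene whose end overlaps that of Stat6, had 1152 and 579 counts, 1.60-fold lower (1.44 to 1.77), just short of the rule, whereas Stat6 was slightly higher. The other neighbours of Stat6, Lrp1 and Nemp1 (listed as Tmem194), had ratios of 1.22 (1.11 to 1.33) and 0.921 (0.813 to 1.04). Apof and Il23a, beside Stat2, had at most 3 counts in either library.

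The Janus kinases that phosphorylate STATs did not move as a group. Jak2, which serves interferon-gamma and interleukin-12 receptors among others, was at 283 and 461 CPM, 1.63-fold higher in the knockout library (1.57 to 1.69), and was called. Jak1 and Jak3, the pair on the common gamma chain receptors, had ratios of 0.896 (0.873 to 0.919) and 1.17 (1.13 to 1.20). Tyk2, which serves type I interferon and interleukin-12 receptors, was at 177 and 119.9 CPM, 1.47-fold lower (1.39 to 1.56), and was not called. With 1 of 4 higher and 0 lower, beside 9.58% and 12.3% of all measured genes, the list had a median log2 ratio of 0.03.

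Ratios of receptor chains are given by cytokine, beside 9.58% of all measured genes called higher and 12.3% called lower. The lists are short, so a small count called says little about a list. For the STAT5 cytokines, 2 of 7 chains were higher and 1 lower (median 0.47). Il2rb, the signalling chain of the interleukin-2 receptor, was at 1037 and 2010 CPM, 1.94-fold higher (1.90 to 1.97), and Il2ra was 1.55-fold higher (1.52 to 1.58). Il9r was the lower one, 22.4-fold lower (17.1 to 30.1). For the STAT3 cytokines 0 of 7 measured chains were called in either direction (median 0.15), and Il23r and Osmr were not measured. Both chains of the interleukin-12 receptor above STAT4 were called, Il12rb1 at 1.65-fold higher (1.53 to 1.78) and Il12rb2, with 25 and 417 counts, at 20.8-fold higher (13.9 to 32.5). Il4ra, the interleukin-4 receptor chain above STAT6, was at 274 and 569 CPM, 2.08-fold higher (2.01 to 2.15), while Il13ra1 had 61 and 28 counts and was not called. The interferon receptor chains above STAT2 were not called, with Ifnar1 at a ratio of 1.28 (1.23 to 1.33) and Ifnar2 at 1.32 (1.22 to 1.42), and Ifnlr1 was not measured.

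Among 11 partners and coactivators of STATs, 1 was higher and 0 lower (median 0.17), a share close to the 9.58% of all measured genes called higher. The 1 was Irf9, the DNA-binding partner of STAT2 in ISGF3, at 121 and 219 CPM, 1.80-fold higher (1.70 to 1.90). Of the 9 genes of the interferon regulatory factor family, which includes Irf9, 4 were higher and 2 lower (median 0.56). Irf1 was 2.62-fold (2.50 to 2.74) and Irf7 2.31-fold higher (2.09 to 2.54). Irf5 was 2.03-fold (1.74 to 2.38) and Irf4 1.84-fold lower (1.74 to 1.94).

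Of the inhibitors of the pathway, SOCS proteins, which STATs induce and which block the receptors in return, had 4 of 8 genes higher and 0 lower (median 0.64). Socs1 was at 33.2 and 124 CPM, 3.73-fold higher (3.40 to 4.10), Socs3 was 3.44-fold (3.28 to 3.59) and Cish 2.68-fold higher (2.55 to 2.82). The 4 PIAS genes, whose proteins bind STATs in the nucleus, had 0 called in either direction (median 0.11), beside 9.58% of all measured genes called higher and 12.3% lower. Their ratios were 1.33 for Pias1 (1.22 to 1.45), 0.882 for Pias2 (0.805 to 0.966), 0.634 for Pias3 (0.554 to 0.725) and 1.34 for Pias4 (1.22 to 1.47). Among 6 phosphatases of the pathway 1 was higher and 0 lower (median -0.11), beside the same 9.58%, the 1 being Ptpn1, a phosphatase of Janus kinases, at 2.04-fold higher (1.98 to 2.11).

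**Figure D4:**
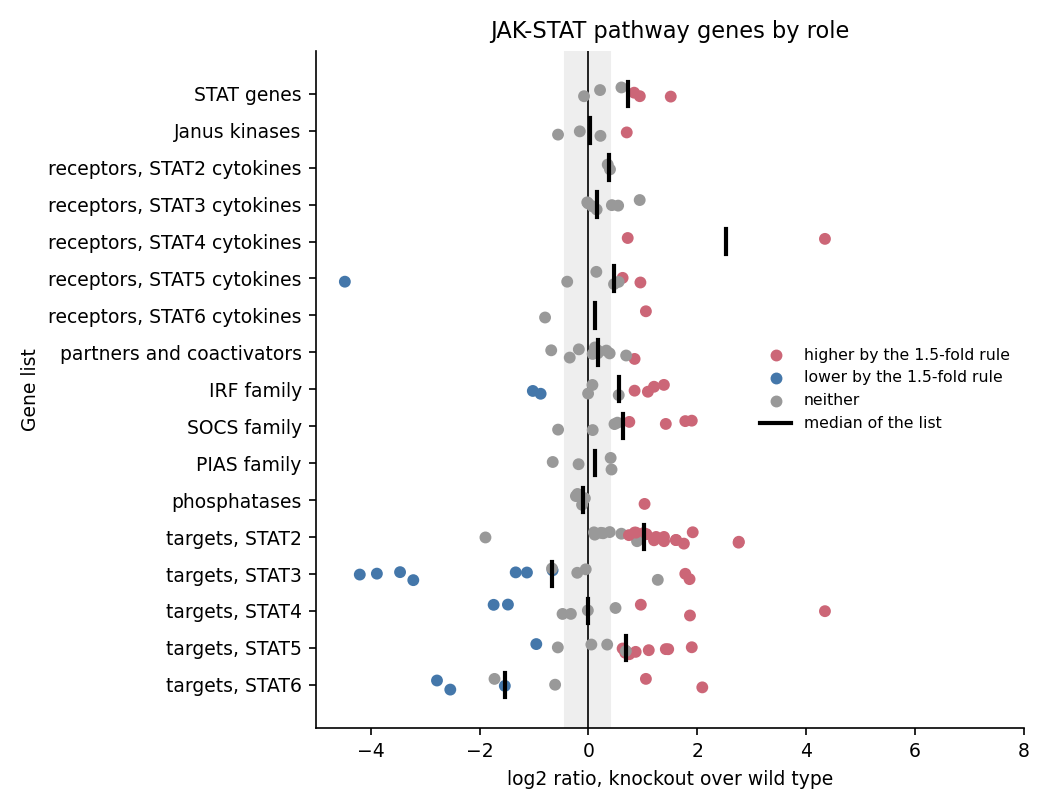
The log2 ratio of knockout to wild type for every measured gene of each pathway list (points, jittered in height only, coloured by the 1.5-fold rule), with each list's median (black bar) and the quartile range of all measured genes (grey band). The STAT, SOCS, STAT2 target and STAT5 target lists have medians of 0.72, 0.64, 1.01 and 0.68, and the STAT3 and STAT6 target lists have medians of -0.67 and -1.54.

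Known target genes of the individual STATs went different ways. The counts for each list stand beside 9.58% of all measured genes called higher and 12.3% called lower. Of 14 STAT5 targets, 9 were higher and 1 lower, with a median log2 ratio of 0.68. After Socs1, Osm was 2.77-fold (2.41 to 3.17) and Cish 2.68-fold higher, and Bcl2l1, which encodes the survival protein BCL-XL, was 1.94-fold lower (1.68 to 2.25). Of 23 interferon-induced targets of STAT2 in ISGF3, 15 were higher and 0 lower (median 1.01). Ifit3 was 6.82-fold (5.71 to 8.18), Oasl2 6.79-fold (5.72 to 8.10) and Usp18, whose product restrains interferon signalling, 3.78-fold higher (3.20 to 4.49). Of the 8 that were not called, Ifi44 had 20 and 4 counts, the single ratio below 1.

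STAT3 targets were lower more often than higher, 7 of 13 against 2, with a median of -0.67, although Stat3 itself was higher. Of all measured genes, 12.3% were called lower and 9.58% higher, which also stands beside the short STAT4 and STAT6 lists. Il10 was 18.5-fold (14.3 to 24.5) and Il17a, with 33 and 2 counts, 13.2-fold lower (3.39 to 114). The higher ones were Bcl3 at 3.63-fold (3.38 to 3.90) and Socs3. Of 9 STAT4 targets, 3 were higher and 2 lower (median -0.01, mean 0.40). Il12rb2, Gadd45g at 3.65-fold (3.23 to 4.13) and Map3k8 at 1.95-fold (1.78 to 2.14) were higher, and the interleukin-18 receptor genes Il18rap and Il18r1 were 3.35-fold (2.88 to 3.91) and 2.79-fold lower (2.55 to 3.06). Of 7 measured STAT6 targets, 2 were higher and 3 lower (median -1.54, mean -0.86). With no filter on low counts the median was -0.61, and with a 5 CPM filter 1 was higher. Il1rl1, the interleukin-33 receptor gene, was 6.90-fold (5.94 to 8.04), Nfil3 5.82-fold (4.98 to 6.85) and Ccr8 2.90-fold lower (2.56 to 3.30), while Il4ra and Il13, the latter with 6 and 22 counts and a ratio of 4.57 (1.80 to 13.8), were higher. The target lists are textbook targets of each factor, many answer to other factors too, and 9 of the 123 pathway genes stand in more than 1 list.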

How the data were processed

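RNA was measured in 2 libraries. The submitters' processing notes name TopHat, HTSeq and the mm10 build. Their versions, the annotation and the handling of multiply matching reads: not given in the sources used here. The deposited values are raw counts per gene name and, from the authors, FPKM values. Counts were scaled with TMM (edgeR 4.0.16, R 4.3.3). Ratios have exact 95% conditional-binomial intervals, and log2 ratios had 0.5 counts added. A gene counted as measured where either library reached 1 CPM, and a gene was called where its interval lay wholly beyond 1.5-fold. With 1 library per genotype there is no p-value. Reads carry no molecular identifiers and may repeat a molecule, so the intervals and the floor hold counting error alone. The floor, 3 counts, was 0.166 CPM (wild type) and 0.206 CPM (knockout). Pair ratios are exact conditional odds ratios.

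The members, the 16 pathway lists and the 6 marker lists were chosen with earlier results of these data known. The named genes are the members, Psmd14, Foxp3, up to 3 called genes at each end of every pathway list, all genes of lists of at most 4, and genes next to or overlapping a member. Other genes named (Cd4, Ctla4, Ikzf2, Ikzf4, the CD8 T cell and natural killer cell markers, markers at 0 counts, Il23r, Osmr, Ifi44, and the targets named for a promoter motif, such as Isg15, Oas3, Bcl6 and Ifng) were chosen after their values were seen. With 2 libraries, no gene was named for a pattern like that of a member. Other genes of the family are not analysed here, and some genes that the rule picks are not reported here. Coordinates and exons come from GENCODE M21 (mm10), and promoters from RefSeq (GRCm38.p6). The alternatives were other scalings (library totals, upper quartile, DESeq2 1.42.0 size factors), filters, fold limits and added counts. The interval rule was tested on data simulated with counting error alone and with known scaling, which is the model the intervals assume. That test therefore says nothing about the spread between mice, repeated molecules or errors of scaling. Intervals came from scipy 1.17.1 and figures from matplotlib 3.10.9, under Python 3.11.15 with pandas 2.3.3 and numpy 2.4.6.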

Additional observations from a re-analysis of the deposited data

How the results depend on the processing

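The log2 ratio of each STAT gene kept its sign under all 5 alternatives (other scalings, the FPKM ratio and 2 added counts), and moved by at most 0.05 between the lowest and highest value. Little movement was possible, since the scalings shift all genes alike, by at most 0.04, and the FPKM rest on the same counts. Under a 2-fold rule 1 STAT gene, Stat2, was called higher, where 4.34% of all genes were. All genes called numbered 2253 higher and 2620 lower at 5/4-fold and 585 and 892 at 2-fold, against 1290 and 1659 at 1.5-fold. With all Gm28177 counts added, the log2 ratio of Stat4 changed sign, from -0.08 to 1.28. That alternative was chosen after the data were seen. The share of Stat5b in the pair was 79.6% and 76.8% (wild-type and knockout library) by the authors' FPKM, and 63.1% and 59.2% per kilobase of principal transcript, also chosen after the data were seen. The median of the STAT4 targets turned to 0.029 with upper quartile scaling and to 0.24 with a 5 CPM filter. With upper quartile scaling at 1.5-fold, and at 5/4-fold with TMM (16.7% of all genes), 4 STAT genes were higher, Stat5b being added. The median of the STAT6 targets was -0.61 with no filter on low counts. No paired analysis was possible because each genotype has 1 library. The spread between mice cannot be seen in these libraries.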

Other observations

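The search for motifs in promoter windows was repeated for the target lists, as a description of letters. Of the 23 STAT2 targets, 16 had a RefSeq window, and 7 of these (43.8%) held the ISRE motif (GAAA, any 2 bases, GAAA) in the 250 bases before a start, against 3.46% of 27025 genes. They were Isg15, Ifit1, Ifit3, Oas1a, Oas3, Rsad2 and Bst2. Of these 7, Isg15, Ifit1, Ifit3 and Oas3 were called higher in the knockout library, at 2.37-fold (1.98 to 2.84), 2.62-fold (2.27 to 3.03), 6.82-fold (5.71 to 8.18) and 2.02-fold (1.80 to 2.27). Oas1a, Rsad2 and Bst2 were not called, with ratios of 1.21 (0.846 to 1.73), 1.07 (0.778 to 1.48) and 1.31 (1.16 to 1.48). In the whole list, with or without a match, 15 of 23 were called higher, against 9.58% of all measured genes. Whether the motif goes with the difference was not tested. Among the STAT genes the same motif stood before Stat2, which was higher, and before the downstream start of Stat4, which was near level.

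The TTCNNNGAA motif stood before 3 of 16 STAT2 targets with a window (Ifit2, Oas1a and Bst2), 3 of 10 STAT3 targets with a window (Socs3, Bcl6 and Ccr6), 3 of 8 STAT4 targets (Ifng, Il12rb2 and Il18r1) and 1 of 10 STAT5 targets (Foxp3), against 8.13% of all genes. Of the STAT3 targets with the motif, Socs3 was higher, Bcl6 was 2.53-fold lower (2.12 to 3.03) and Ccr6 was not called. It stood before 0 of the 6 STAT genes and 0 of 8 STAT6 targets. The spaced form (TTC, any 4 bases, GAA) stood before 1 of 8 STAT6 targets (Il4, 12.5%), 2 of 16 STAT2, 1 of 10 STAT3, 2 of 8 STAT4 and 0 of 10 STAT5 targets, against 6.76% of all genes.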
